A study of Mus musculus with 6 samples.

Results

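Cytosolic ribosomal protein genes were followed across the cell types of the proximal pulmonary artery (PA) of young and old mice. Members were the genes of the count tables whose symbol is that of a protein of the cytosolic ribosome, written Rps or Rpl with a number, together with Rpsa, Rplp0, Rplp1 and Rplp2. Pseudogenes with names ending in -ps and a number and the Rps6k kinases were left out. This rule found 89 members among 53647 genes, 36 of the small and 53 of the large subunit. In the cells kept for analysis, members took 5748300 of 66820192 unique molecular identifiers (UMIs, tags that count single RNA molecules), or 8.60%.

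The libraries came from C57BL/6J wild-type mice. There were 2 young libraries (3 months) and 4 old ones (20, 24, 28 and 27 months, named old 1 to old 4). The main PAs were cut out with surrounding tissue, digested with collagenase and elastase, and cells were captured in droplets and sequenced from the 3′ ends of their transcripts. Young 2 and old 3 are labelled female and old 4 male, and the mice of 20 and 24 months are described as males in the text on the experiment. The label of young 1 gives no sex. The paper lists 3 young mice, 2 males and 1 female, against the 2 young libraries here. Whether a young library pools mice is not given. All 6 libraries were single samples, so p-values over libraries cover differences between mice and between preparations together.

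A ribosome is built from ribosomal RNA and one copy of nearly every ribosomal protein, and the genes of these proteins are among the most highly transcribed genes of a mammalian cell. Their messenger RNAs begin with a run of pyrimidines, the 5′ terminal oligopyrimidine tract, through which growth signals such as mTOR adjust their translation. Some members have a paralog that can take their place in the ribosome or that has a tissue of its own, such as Rpl3l in striated muscle, Rpl10l and Rpl39l in the testis, and Rpl22l1 and Rps27l in many tissues.

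The starts of some of the genes described below are shown because they carry this tract and because paralogs can be compared there. RefSeq promoter sequences on GRCm38.p6 were found for 64 of the 89 members. Each line runs 5′ to 3′ on the transcript strand, which has the sequence of the RNA. It goes from 40 bases before to 20 bases into the annotated transcript, so that its end lies in the first exon and 5′ UTR. Capitals mark the longest run of C and T within 20 bases of the start.
Rps18 (chr17:33955646-33955705, minus strand): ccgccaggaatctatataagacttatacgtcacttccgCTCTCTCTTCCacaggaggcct
Rps6 (chr4:86857348-86857407, minus strand): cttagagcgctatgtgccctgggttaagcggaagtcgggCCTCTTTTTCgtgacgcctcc
Rplp2 (chr7:141447611-141447670, plus strand): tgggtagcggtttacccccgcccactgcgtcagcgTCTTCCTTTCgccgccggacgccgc
Rpl28 (chr7:4792925-4792984, plus strand): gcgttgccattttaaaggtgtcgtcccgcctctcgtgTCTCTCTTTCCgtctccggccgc
Rpl15 (chr14:18270967-18271026, minus strand): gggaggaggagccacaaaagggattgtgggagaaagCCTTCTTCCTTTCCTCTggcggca
Rps27 (chr3:90213629-90213688, minus strand): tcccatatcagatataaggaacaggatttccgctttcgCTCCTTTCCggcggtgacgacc
Rps27l (chr9:66946046-66946105, plus strand): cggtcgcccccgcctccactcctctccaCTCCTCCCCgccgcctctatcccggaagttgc
Rpl22l1 (chr3:28805468-28805527, plus strand): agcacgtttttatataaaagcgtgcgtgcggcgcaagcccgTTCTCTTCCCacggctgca

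The run reached the annotated start in Rps18, Rps6, Rplp2, Rpl28, Rpl15 and Rps27, where it was 9 to 17 bases long. In Rps27l a run of 9 bases began 12 bases upstream of the start, and the first listed start of the gene is shown. In Rpl22l1 a run of 10 bases began 2 bases past the start. Within 50 bases on either side of the start, 3 short pyrimidine strings were searched on both strands, with overlaps between them allowed. The string CTTTCC stood on the transcript strand in 28.9% of 76 member promoters, against 4.69% of all 32851 promoters. For CTCTTT these shares were 28.9% and 3.99%. For CTTTTC they were 13.2% and 3.69%. At least one of the 3 was present in 39 of 76 member promoters (51.3%), against 3597 of all promoters (10.9%). On the opposite strand it was 5 of 76 (6.58%), against 10.3% of all promoters. The string CTTCCG, part of the binding sequence of ETS factors, stood on the transcript strand in 14.5% and on the opposite strand in 19.7% of member promoters. Of all promoters, these shares were 4.69% and 5.11%. A match is a description of the letters and was not tested as a site.

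A barcode was kept as a cell if it had 500 UMIs and 300 genes or more and no more than 20% of UMIs from mitochondrial genes, which left 15622. Libraries differed in depth, from 6355125 to 50436562 UMIs in all and from a median of 801.5 to 8150 UMIs per kept barcode. Old 3 and old 4 were the deepest. Young 1, young 2 and old 2 shared 131 to 215 kept barcodes in each pair, whereas any other pair shared at most 4. From the numbers of kept barcodes alone, 0.37 to 1.15 would be expected in each pair of these libraries. Young 2, with 935 kept barcodes, shared 215 with old 2 and 156 with young 1. Whether shared barcodes hold RNA of the same cells was not tested, so these libraries may not be independent of each other. Old 1, from a mouse described as male, held 2411 UMIs of Xist and 2 of the Y-linked Eif2s3y. Old 2, also described as male, held 164 and 207, and young 1 held 150 and 109. Young 2 and old 3, labelled female, held 942 and 8, and 20518 and 0. Old 4, labelled male, held 48 and 1898. Barcodes of 1 to 100 UMIs, which hold mostly free RNA, had 2.09% to 5.97% of their UMIs on members, less than the kept barcodes of the same library (7.07% to 17.0%). Smooth muscle cells (SMCs), which form the wall of an artery, numbered 144, 852 and 268 in old 1, old 3 and old 4, beside 24 and 1941 cells of old 3 and old 4 in a cluster that failed the marker check and was kept apart. Young 1, young 2 and old 2 held at most 5 cells named as SMCs each. A cluster led by Itgb3, Tcap and Mustn1 had all 8 SMC markers raised. It was left unnamed because its cells had a median of 0.18 of the UMIs usual in their library and no SMC marker led it. It held 23 cells of young 1, 28 of young 2, 5 each of old 1 and old 2, 97 of old 3 and 134 of old 4.

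The member genes spanned a wide range of counts. Rpl41 had the most UMIs in kept cells (184187), followed by Rps24 (179013), Rps21 (157588), Rplp1 (154697) and Rpl23 (151431). At the other end, 9 members had fewer than 100 UMIs. Rpl13, Rpl24, Rps3a3 and Rpl32l were listed at 0, which allows up to 3 UMIs of the total. Rps10 had 2 UMIs, Rpl10l 4, Rps12l1 6, Rpl39l 38 and Rpl3l 40. Rpl13, Rpl24 and Rps10 encode core proteins that ribosomes of all cells use, so their values say nothing of expression, and Rpl13a, another core protein, had only 2694 UMIs. Processed copies of these genes are spread over the genome, and pseudogene rows took 0.0398% to 0.633% of UMIs in kept cells. Levels were therefore compared for one gene across cell types, and not between genes.

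The first question was which cell types of the PA devote most of their transcripts to ribosomal proteins. Tests were run on the 7 types with 10 cells or more in at least 4 libraries. Among these, B cells held the largest share, followed by T cells, and airway epithelial and mesothelial cells the smallest. In B cells, members took 26.9% of UMIs in young 1, 27.95% in young 2, 21.6% in old 2, 19.7% in old 3 and 16.3% in old 4. T cells had 26.0% in young 1, 23.3% in old 1, 21.2% in old 2, 15.7% in old 3 and 12.7% in old 4. Both lymphocyte types lay above the mean of the other types in each of their 5 libraries.

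Fibroblasts (FBs) ranged from 8.67% to 14.9% over 6 libraries with a median of 9.96%, and macrophages (MΦs) from 4.30% to 14.9% with a median of 11.2%. Blood endothelial cells (ECs) ranged from 7.41% to 13.7% with a median of 8.11%. Airway epithelial cells ranged from 6.08% to 10.6% with a median of 7.74%, and mesothelial cells from 6.08% to 9.57% over 5 libraries with a median of 6.92%. The ranges of these 5 types overlapped one another, and only the MΦs reached both ends of the scale.

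Within a library, B cells exceeded the mean of the other types by 12.4 ± 3.75 percentage points (SD, n = 5) and T cells by 8.98 ± 3.47. Airway epithelial cells lay 5.24 ± 1.76 percentage points below the other types (n = 6) and mesothelial cells 5.29 ± 1.54 below (n = 5), in every library of each. The exact two-sided sign-flip test gave p = 0.0625 for B, T and mesothelial cells, the smallest that 5 libraries allow, and p = 0.03125 for airway epithelial cells, the smallest for 6. No adjusted p over the 7 types passed 0.05, and for these 4 types it was 0.0875. FBs (1.90 percentage points lower), MΦs (2.47 lower) and blood ECs (3.76 lower) differed from the rest by less consistent amounts, with exact adjusted p from 0.0875 to 0.188.

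**Figure D1:**
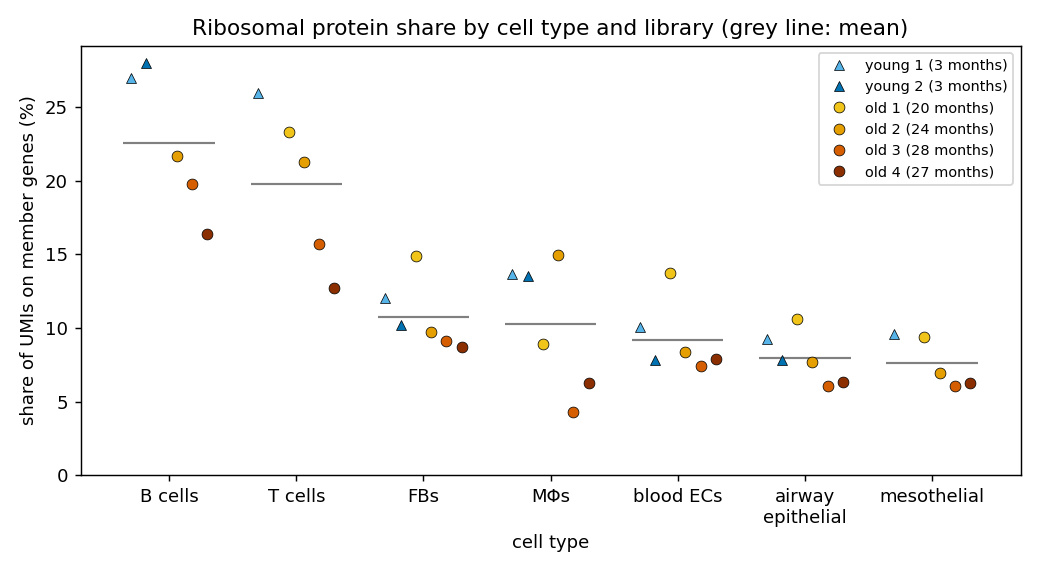
Share of UMIs on member genes (y axis, %) in 7 cell types (x axis), with 1 point per library (triangles young, circles old) and the mean as a grey line. B cells (16.3% to 27.95%) and T cells (12.7% to 26.0%) lie above the other types of the same library, and old 3 and old 4 have the lowest B and T cell values.

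In the order of mean levels (B, T, FB, MΦ, blood EC, airway epithelial, mesothelial), most neighbours could not be separated. B cells exceeded T cells in 4 of 4 shared libraries by 2.26 ± 1.84 percentage points (exact adjusted p = 0.25), and T cells exceeded FBs in 5 of 5 by 8.91 ± 3.91 (exact adjusted p = 0.188). Blood ECs exceeded airway epithelial cells in 6 of 6 by 1.25 ± 1.05 (exact p = 0.03125, adjusted 0.188). As a mean over cells thinned to 500 UMIs, which weighs all cells alike, this difference was 0.43 percentage points (exact adjusted p = 0.713). Airway epithelial cells then lay above blood ECs in 3 of 6 libraries. FBs and MΦs, and MΦs and blood ECs, changed order from library to library, each with the first higher in 3 of 6. The mean difference between FBs and MΦs turned from 0.50 to -0.59 percentage points without old 1 and to -0.36 without old 3, and that between MΦs and blood ECs from 1.06 to -0.038 without old 2.

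Thinning every cell to 500 UMIs and taking the mean over cells gave shares from 15.9% to 28.3% in B cells and from 12.9% to 25.5% in T cells. The shares above pool UMIs, so that cells with many UMIs weigh more, whereas this mean weighs all cells alike. Airway epithelial cells went from 7.70% pooled to 9.25% in old 2 and from 7.79% to 9.23% in young 2. MΦs of old 1 went from 8.93% to 7.503%. In number of member UMIs per cell, B cells lay above FBs in every library with 10 cells or more of both. They lay above airway epithelial cells in young 1 and old 3 but below them in young 2, old 2 and old 4. In old 3 a B cell held 1535 member UMIs on average, against 590.5 in an FB and 919.2 in an airway epithelial cell. In old 2 the same types held 172.0, 90.3 and 197.0. In these data, more member RNA per cell and less of other RNA cannot be told apart from the share alone.

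Named cell types with 10 cells or more in fewer than 4 libraries were not tested, and their shares fell on both sides of these ranges. Plasma cells, which secrete antibody, had 22.6%, 13.2% and 17.0% in young 1, old 2 and old 3. Cells named as SMCs reached 10 only in old libraries, with 13.2%, 6.92% and 7.43% in old 1, old 3 and old 4. Young and old SMCs were therefore not compared. The unnamed cluster with SMC markers had 9.40% and 9.82% in young 1 and young 2, and 10.9% and 10.1% in old 3 and old 4. A cluster led by Myocd, Sost and Mylk, the one kept apart above, had 6.80% in old 3 and 6.68% in old 4. Erythroid cells had 4.76% and 2.96% in old 2 and old 3, and neutrophils 7.29% and 1.97% in the same libraries, of which the old 3 value was the lowest of any named type.

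Types were not uniform inside. Members and pseudogenes were left out of clustering, so that the clusters below were not defined by them. Among airway epithelial cells, the cluster with the basal cell genes Krt5 and Aqp3 had 11.3% to 17.3% over 5 libraries. The cluster led by the secretory gene Scgb1a1 had 6.35% to 7.49%, and the cluster led by the ciliary genes Ccdc153 and Tmem212 4.87% to 9.05%. In each of the 5 libraries that held both, the basal cluster lay above the secretory one.

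MΦs fell into clusters in a like manner. The cluster led by the chemokines Ccl3 and Ccl4 had 10.7% to 17.9% over 6 libraries and held most MΦs of young 1 and old 2. The cluster led by Ccl8, F13a1 and Cd209f was found in old 3 and old 4, with 4.11% and 6.15%. Cells of the chemokine cluster had a median of 973 UMIs in old 3 and those of the Ccl8 cluster 5994, so that cluster, depth and library moved together.

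The second question was whether the members moved together or one by one between types, which was tested with edgeR on counts summed per library and type, with the library as a term. Of the 89 members, 80 passed the filter on low counts. In B cells 78 of these 80 were higher than in the other types at an adjusted p under 0.05, where 20.9% of all 13378 genes tested were. The median log2 fold of the members was 1.17, beside 0.03 over all genes.

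The large rises in B cells were those of Rpl32 (log2 fold 1.65 ± 0.18, SE, adjusted p = 1.6e-10), Rps18 (1.65 ± 0.20) and Rps26 (1.62 ± 0.20). Rpl32 had 49.7, 83.1, 42.8, 67.6 and 39.5 UMIs per 10000 in the B cells of young 1, young 2, old 2, old 3 and old 4. In FBs it had 15.1 to 21.98 over 6 libraries and in mesothelial cells 9.64 to 12.03 over 5. The B cell values of Rpl32 lay above all values of these types. Rps18, whose protein sits in the head of the small subunit, had 32.1 to 65.0 UMIs per 10000 in B cells and 6.15 to 13.1 in mesothelial cells. The exceptions in B cells were the paralogs Rps27l (log2 fold -0.05 ± 0.23, adjusted p = 0.93) and Rps4l (-0.35 ± 0.40, adjusted p = 0.54).

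In T cells 26 of the 80 members rose and 2 fell, where 24.9% of all genes were called (10.2% higher and 14.7% lower). Rpl12, a protein of the stalk base where elongation factors bind, rose most (log2 fold 1.01 ± 0.20, adjusted p = 0.00011), followed by Rps15a (0.93 ± 0.19) and Rps7 (0.89 ± 0.21). Rps4l (-2.33 ± 0.67) and Rps27l (-0.96 ± 0.26) were the members that fell. The count of T cell calls depended on scaling, with 72 members called without TMM normalization, 64 with DESeq2 and 10 in thinned cells. It was 51 without old 1 and 18 without old 3. These counts are given without the share of all genes called under the same setting. Without TMM the median of all genes moved by 0.33, and relative to it the members' median was 0.83 against 0.75 with TMM.

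In mesothelial cells, the lining of the lung surface, 67 of 80 members fell and 0 rose, where 11.6% of all genes fell. Rps18 (log2 fold -1.33 ± 0.25, adjusted p = 1.8e-05), Rpl32 (-1.28 ± 0.23) and Rpl12 (-1.28 ± 0.24) fell most. The members' median was -0.85, beside -0.04 over all genes.

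In blood ECs 28 of 80 fell and 0 rose, where 10.4% of all genes fell. The falls were led by Rplp0, the base of the stalk of the large subunit (log2 fold -1.12 ± 0.22, adjusted p = 5.0e-05), Rpl27 (-1.04 ± 0.22), and Rpsa, which is also known as the laminin receptor (-1.04 ± 0.23). Rplp0 had 4.59 to 14.0 UMIs per 10000 in blood ECs over 6 libraries with a median of 7.85, against 8.67 to 23.5 with a median of 14.2 in FBs. The 2 ranges overlapped, and within each library the FBs were higher. The count of blood EC calls was 48 with DESeq2 and 3 in thinned cells. When a library was left out, it ranged from 10 (without young 1 or without old 2) to 51 (without old 1). For these counts too, the share of all genes called under the same setting is not given.

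Few members were called in the other 3 types with TMM normalization. In airway epithelial cells 3 rose and 1 fell of 80, where 27.8% of all genes rose and 10.7% fell. These counts turned on the scaling, since without TMM 1 member rose and 75 fell. The median of all genes moved by -0.48 between the scalings, and relative to it the members' median was -0.17 with and -0.32 without TMM. In FBs 1 rose and 1 fell, where 18.8% of all genes rose and 13.1% fell, and the 2 calls became 4 without old 1, 0 without old 2 or old 4 and 1 without any other library. In MΦs 1 rose and 1 fell, where 22.3% and 12.1% of all genes did. DESeq2 called 41 members there, 40 of them lower, and these shares of all genes do not apply to that count. Without old 2 the MΦ calls were 1 higher and 4 lower. The counts of these 3 types under other settings are likewise given without the share of all genes called there.

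**Figure D2:**
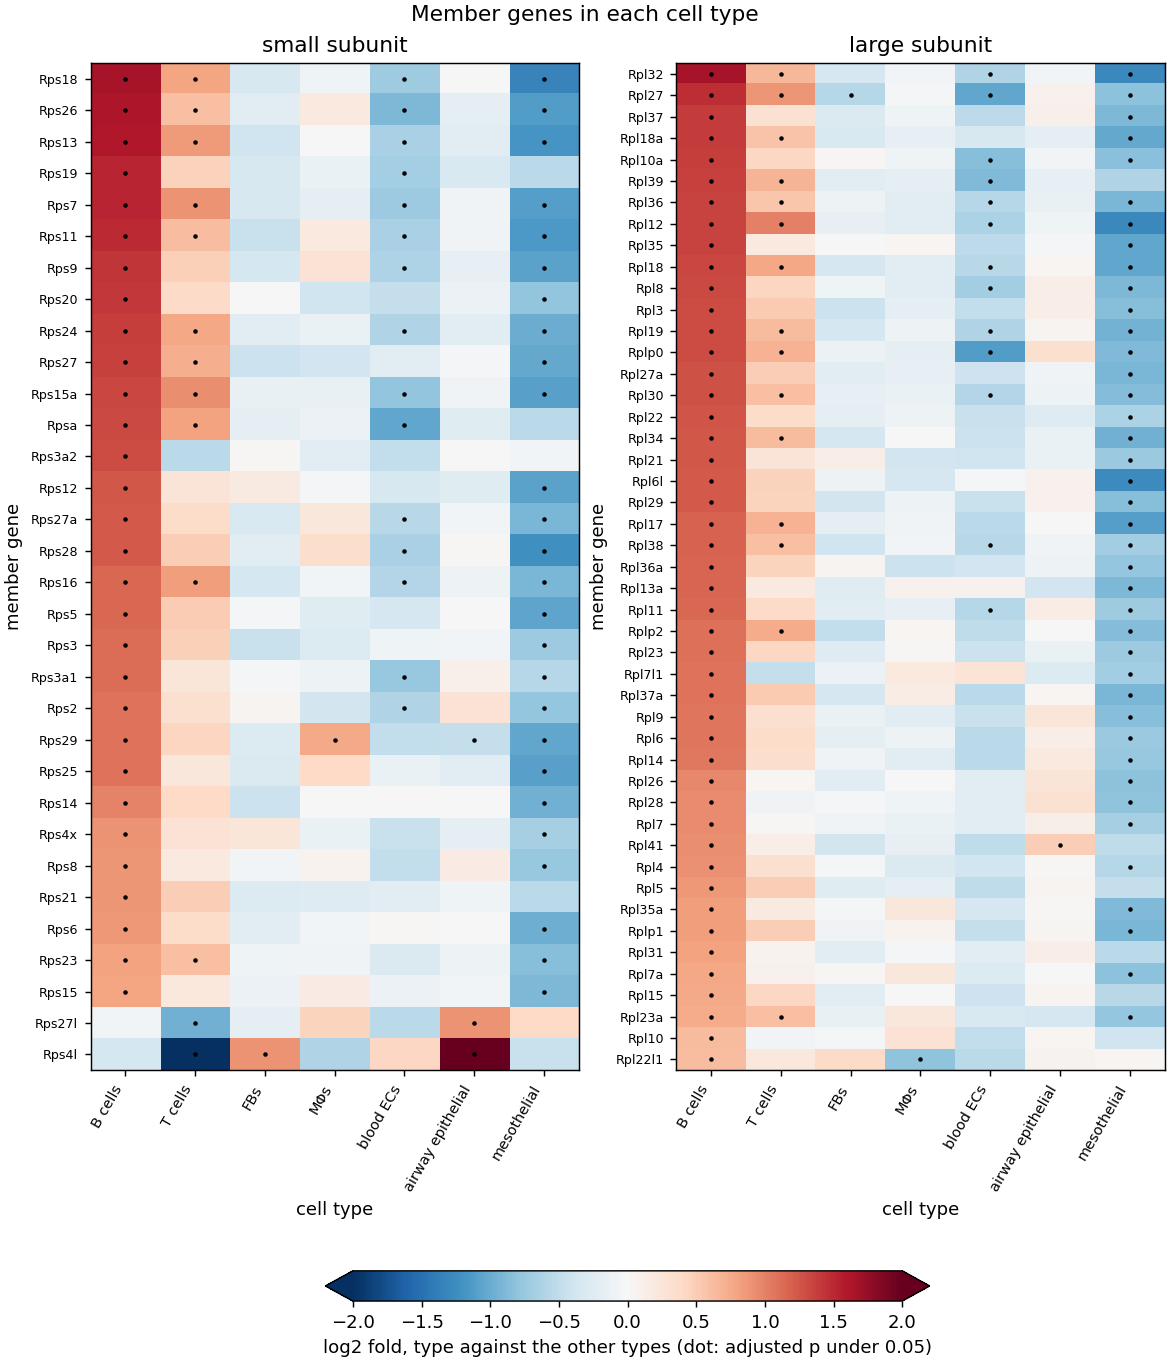
Heat map of the log2 fold (colour) of the member genes reported here (rows, small subunit left and large subunit right, ordered by their value in B cells) in each of 7 cell types against the other types (columns), with a dot where the adjusted p was under 0.05. The B cell column is red and the mesothelial column blue in most rows, while Rps27l and Rps4l at the foot of the left panel run against the rest.

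Rps29, a small zinc-binding protein, rose in MΦs (log2 fold 0.76 ± 0.17, adjusted p = 0.00038) and fell in airway epithelial cells (-0.48 ± 0.19, adjusted p = 0.043). In MΦs it had 76.95, 53.1, 46.4, 45.1, 6.65 and 16.6 UMIs per 10000 in young 1, young 2 and old 1 to old 4. In airway epithelial cells it had 17.8, 15.6, 28.8, 13.1, 4.48 and 7.17 in the same order. MΦs were higher in 6 of 6 libraries, and old 3 was the lowest library in both types. Rpl41, the shortest member protein, rose in airway epithelial cells (0.49 ± 0.19, adjusted p = 0.036) but its log2 fold was -0.11 without TMM.

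The members named for their roles followed the module in B and mesothelial cells. The stalk proteins Rplp0, Rplp1 and Rplp2, which recruit elongation factors, all rose in B cells (log2 folds 1.30, 0.83 and 1.10) and fell in mesothelial cells (-0.88, -0.91 and -0.87). Rps6, the target of the S6 kinases, rose in B cells (0.87 ± 0.22, adjusted p = 0.0013) and fell in mesothelial cells (-0.98 ± 0.25, adjusted p = 0.0019), and in blood ECs its value was 0.03 ± 0.22. Rps27a, which is made as a fusion with ubiquitin, rose in B cells (1.23 ± 0.20) and fell in blood ECs (-0.56 ± 0.21, adjusted p = 0.044) and mesothelial cells (-0.92 ± 0.24). Rpl13a, which has a role in silencing messenger RNAs under interferon gamma, rose in B cells (1.17 ± 0.26) and fell in mesothelial cells (-0.90 ± 0.30, adjusted p = 0.018), with 51 to 365 UMIs per type.

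Paralogs are given here beside their partners, and the difference within a pair was not tested. Rps27l, a gene induced by p53, rose in airway epithelial cells (log2 fold 0.90 ± 0.19, adjusted p = 0.00013) and fell in T cells, whereas Rps27 rose in T cells (0.72 ± 0.20, adjusted p = 0.0042) and had -0.04 ± 0.19 in airway epithelial cells. Rps27l made up 0.376% to 0.665% of member UMIs in airway epithelial cells over 6 libraries and 0.091% to 0.207% in B cells over 5, and these ranges did not overlap. In mesothelial cells it made up 0.276% to 0.872%.

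Relative to the sum of the member counts, Rps27l rose in mesothelial cells (log2 fold 1.27 ± 0.19), airway epithelial cells (0.96 ± 0.18) and MΦs (0.51 ± 0.18) and fell in B (-1.30 ± 0.24) and T cells (-1.39 ± 0.25), each at an adjusted p under 0.05. Rpl22l1, the paralog of Rpl22 with a known role in lymphocyte development, fell in MΦs on the TMM scale (-0.80 ± 0.26, adjusted p = 0.013). Relative to the members it rose in mesothelial cells (0.94 ± 0.19) and FBs (0.61 ± 0.18) and fell in MΦs (-0.75 ± 0.19) and B cells (-0.61 ± 0.21). Rpl22 was not called in any type on that scale.

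**Figure D3:**
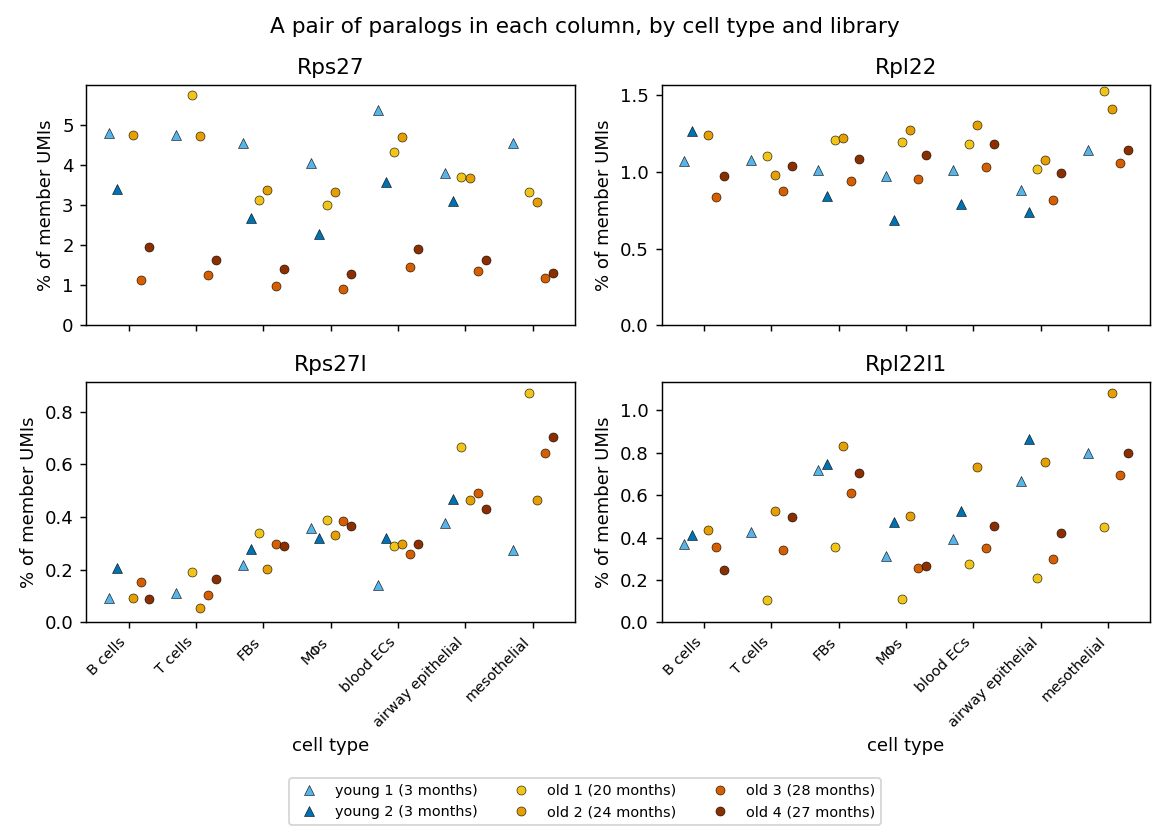
Percent of member UMIs (y axis) on Rps27 and Rpl22 (top) and on their paralogs Rps27l and Rpl22l1 (bottom) in 7 cell types (x axis), with 1 point per library (triangles young, circles old). Rps27l lies at 0.055% to 0.207% in B and T cells and at 0.276% to 0.872% in mesothelial cells, while Rps27 separates old 3 and old 4 from the other libraries in each type.

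Rps4l, an autosomal copy of the X-linked Rps4x, rose in airway epithelial cells (log2 fold 2.42 ± 0.28, adjusted p = 2.2e-10) and FBs (0.90 ± 0.32, adjusted p = 0.025). Its level was low, with 0.31 to 0.54 UMIs per 10000 in airway epithelial cells (192 UMIs in all) and 4 UMIs in all T cells. Rps4x had 9.12 to 16.8 UMIs per 10000 in airway epithelial cells, so that a few of its reads placed on the copy could change the value of Rps4l. Rpl7l1 rose in B cells with its partner Rpl7 (1.09 ± 0.25 and 0.94 ± 0.19). Rpl3l, Rpl10l and Rpl39l did not pass the filter on low counts, and Rpl39l had 20 of its 38 UMIs in MΦs.

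On the scale relative to the members' sum, only some members departed from the module. In B cells 4 rose and 7 fell, where 5.74% of all genes rose and 60.9% fell. In T cells 3 rose and 8 fell (6.47% and 37.4% of all genes), and in mesothelial cells 4 rose and 1 fell (51.8% and 3.5%). In blood ECs 3 rose and 3 fell (26.7% and 5.64%), and in FBs 3 rose and 0 fell (19.8% and 10.1%). In airway epithelial cells 3 rose and 1 fell (31.9% and 8.13%), and in MΦs 3 rose and 1 fell (32.1% and 7.59%). In blood ECs Rps6 (log2 fold 0.56 ± 0.18), Rps14 (0.54 ± 0.16) and Rps3 (0.42 ± 0.17) rose on this scale, and Rplp0 (-0.61 ± 0.18), Rpl27 (-0.54 ± 0.17) and Rpsa (-0.54 ± 0.18) fell.

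Genes that work with the ribosome were followed in lists. Of the partners on the ribosome, 5 of 6 tested rose in B cells, among them Fau (log2 fold 1.49 ± 0.19), whose product carries the small subunit protein eS30, and Rack1 (1.05 ± 0.21), and in mesothelial cells 5 of 6 fell. Of 40 ribosome biogenesis genes, 26 rose and 0 fell in B cells, where 20.9% and 18% of all genes did, including Mybbp1a (1.60 ± 0.24), Tcof1 (1.56 ± 0.27) and the helicase Ddx21 (1.501 ± 0.20), with a list median of 0.92. In T cells 3 of the 40 rose, where 10.2% of all genes did, and in airway epithelial cells 1 rose and 5 fell, where 27.8% and 10.7% of all genes did. These counts were near or under the shares of all genes.

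Of 8 elongation genes tested, 4 rose in B cells, among them Eef1g (1.23 ± 0.20) and Eef1b2 (1.08 ± 0.20), and Eef2k, the kinase that inhibits elongation factor 2, fell (-1.17 ± 0.38). Of 34 initiation genes, 15 rose in B cells, where 20.9% of all genes rose, and 5 fell in mesothelial cells, near the 11.6% of all genes there, among them Eif3f (-0.78 ± 0.21). Of the mitochondrial ribosomal proteins, 24 of 75 rose in B cells (list median 0.45, beside 0.03 over all genes). In airway epithelial cells 24 of 75 rose as well, near the 27.8% of all genes there (list median 0.48, beside 0.16), led by Mrps17 (1.55 ± 0.22) and Mrpl39 (1.51 ± 0.27). Of 17 genes that control translation, 6 rose in B cells, where 20.9% of all genes rose. They were led by Eif2ak3 (2.73 ± 0.20), the PERK kinase of the unfolded protein response. In MΦs 1 of the 17 rose, Eif4ebp1 (1.33 ± 0.21), and 1 fell, Rictor (-0.73 ± 0.25). Of all genes in MΦs, 22.3% rose and 12.1% fell, so these 2 counts lay under the shares of all genes. Of 66 pseudogene rows tested, 54 rose in B cells and 30 fell in mesothelial cells, in the direction of the genes they copy.

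Over 39 profiles of a library and a type, the genes outside the module whose level ranked most like the member share were Fau (Spearman rho 0.928), 2410006H16Rik (0.877), Bola2 (0.876), Btf3 (0.837) and Snrpf (0.829). Snrpe (0.822), Ddx21 (0.819), Eef1b2 (0.817), Hnrnpa1 (0.810) and Hspe1 (0.801) followed, of 5862 genes with at least 1000 UMIs. Profiles of one library share depth and preparation, so these values are descriptions.

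The third question was whether ageing changed the members. The share of UMIs on members in all kept cells was 17.1% in young 1 and 7.15% in young 2, and 12.8%, 12.8%, 8.47% and 7.07% in old 1 to old 4. Old 1, old 2 and old 3 lay between the young libraries and old 4 below both, and the means differed by -1.83 percentage points (exact permutation p = 0.667). Without young 1 the difference was 3.14. These values mix cell types, which the libraries held in different numbers. An unnamed cluster led by Gm10801 and Gm10800 held 276 of the 935 kept barcodes of young 2, with 0.17% of UMIs on members, and 60 barcodes of young 1, with 0.76%.

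Within B cells, the 3 old libraries (21.6%, 19.7% and 16.3%) lay below both young ones (26.9% and 27.95%), a difference of -8.21 percentage points between means of 27.5 ± 0.71% (SD, n = 2) and 19.2 ± 2.68% (n = 3). The two-sided exact permutation test gave p = 0.2, the smallest that 2 against 3 libraries allow, and the adjusted p over 5 types was 0.889. Young 1 had 1190 B cells, old 2 984 and old 3 231, but young 2 had 22 and old 4 31. Clusters of B cells followed the libraries, since most B cells of young 1 and of old 2 fell into different clusters and those of old 3 and old 4 into another one. In the B cell cluster shared by young 1 and old 2 that held most young 1 cells, members took 27.5% and 26.2%. These values came from 1049 and 40 cells. In the cluster that held most old 2 cells, members took 21.7% in young 1 (28 cells), 29.2% in young 2 (15 cells) and 21.3% in old 2 (923 cells).

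In MΦs the means were 13.6 ± 0.12% (SD, n = 2) and 8.60 ± 4.62% (n = 4), a difference of -4.99 percentage points (exact permutation p = 0.4). Old 1, old 3 and old 4 (8.93%, 4.30% and 6.25%) lay below both young libraries (13.7% and 13.5%) and old 2 above (14.9%). Within the 3 libraries that share barcodes, young 1, young 2 and old 2, the difference was 1.33 percentage points. In the chemokine cluster that both ages held, young 1 and young 2 had 14.1% and 13.7%. Old 1 to old 4 had 17.9%, 14.2%, 10.7% and 15.4%, and these values overlapped. They came from 399 and 32 young cells and from 20, 295, 59 and 14 cells of old 1 to old 4. The 59 cells of old 3 had 10.4% mitochondrial UMIs. In a cluster led by Prg4, Saa3 and Alox15, young 1, young 2 and old 2 had 10.6%, 13.4% and 16.5%. A further cluster held 112 MΦs of old 1, with 7.36%.

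FBs had 12.04% and 10.2% in the young and 14.9%, 9.71%, 9.09% and 8.67% in the old libraries, a difference of -0.54 percentage points (exact permutation p = 0.8). Blood ECs had 10.0% and 7.85% against 13.7%, 8.36%, 7.41% and 7.85%, a difference of 0.39 (exact p = 1.0), and airway epithelial cells 9.23% and 7.79% against 10.6%, 7.70%, 6.08% and 6.35%, a difference of -0.83 (exact p = 0.533). The groups overlapped in each of these types. Leaving out 1 library turned the direction in FBs (0.37 without young 1 and 0.098 without old 4) and in blood ECs (-0.71 without young 2 and -1.07 without old 1). No exact permutation test of 2 against 4 libraries could go below p = 0.133. The age differences of B cells and of the other 4 types were compared as well, and none of the 10 pairs of types passed the test (lowest exact permutation p = 0.133, lowest adjusted p = 0.5).

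Per gene, edgeR called no member between old and young in any of the 5 types, where it called 0% of all genes in B cells, MΦs, blood ECs and airway epithelial cells and 0.0444% in FBs (0.0296% lower and 0.0148% higher in old mice). At an unadjusted p under 0.05 it found 6 of 79 members in B cells, 3 of 80 in airway epithelial cells, 2 of 78 in blood ECs, 2 of 79 in FBs and 0 of 78 in MΦs. Of all genes, 6.13%, 6.07%, 5.45%, 6.31% and 5.18% passed it in these types, so that the members' counts were near these shares in B cells and under them in the other 4 types. DESeq2 called 0 members in each type as well. At the looser threshold of the study, an unadjusted p under 0.05 and a fold over 2, members passed only as lower in old mice. These were 5 in B cells, where 2.08% of all genes were lower, 3 in airway epithelial cells (2.12%), 2 in blood ECs (1.6%), 1 in FBs (1.38%) and 0 in MΦs (1.69%). The members' median log2 fold was -0.34 in B cells, -0.22 in airway epithelial cells, 0.06 in blood ECs, 0.11 in FBs and -0.62 in MΦs, beside 0.09, 0.02, 0.12, 0.19 and 0.07 over all genes. In MΦs 76 of 78 members had a fold below 0, but their median was 0.21 when membership of the 3 libraries with shared barcodes was a term of the model.

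The members with the lowest unadjusted p were Rpl41 in B cells (log2 fold -1.04 ± 0.41, adjusted p = 0.74), Rpl6l in airway epithelial cells (-2.30 ± 0.62, adjusted p = 0.77), and Rpl15 in blood ECs (-1.19 ± 0.45, adjusted p = 0.86) and FBs (-1.13 ± 0.51, adjusted p = 0.76). In MΦs it was Rps3a2 (-2.90 ± 1.31, adjusted p = 0.80). In the other direction these were Rpl5 in B cells (1.03 ± 0.59, adjusted p = 0.79), Rpl23a in FBs (1.03 ± 0.50, adjusted p = 0.80) and airway epithelial cells (0.57 ± 0.33, adjusted p = 0.78) and Rpl12 in blood ECs (0.92 ± 0.50, adjusted p = 0.91).

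Rpl15, which lies inside the large subunit, and Rpl27a stood low in old libraries, and were singled out after their values were seen. In FBs Rpl15 had 2.98 and 5.73 UMIs per 10000 in young 1 and young 2 and 1.65, 2.66, 1.32 and 1.33 in old 1 to old 4. In airway epithelial cells it had 2.99 and 4.72 against 1.30, 2.21, 0.79 and 1.01, and in blood ECs 2.68 and 4.13 against 1.76, 1.46, 1.198 and 1.503. In these 3 types every old library lay below both young ones, while in MΦs old 2 (4.46) lay between young 1 (3.11) and young 2 (9.15).

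Rpl27a had 8.06 and 9.56 UMIs per 10000 in young FBs and 4.41, 5.37, 3.00 and 3.70 in old ones, again without overlap. Its log2 folds were -1.18 in B cells, -0.98 in FBs, -1.41 in MΦs, -1.13 in blood ECs and -1.15 in airway epithelial cells, with adjusted p from 0.75 to 0.89. With that term for shared barcodes in the model, the folds of Rpl15 ran from -1.11 to -0.37 and those of Rpl27a from -0.60 to -0.09. The 5 types come from the same mice and are not independent of each other.

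**Figure D4:**
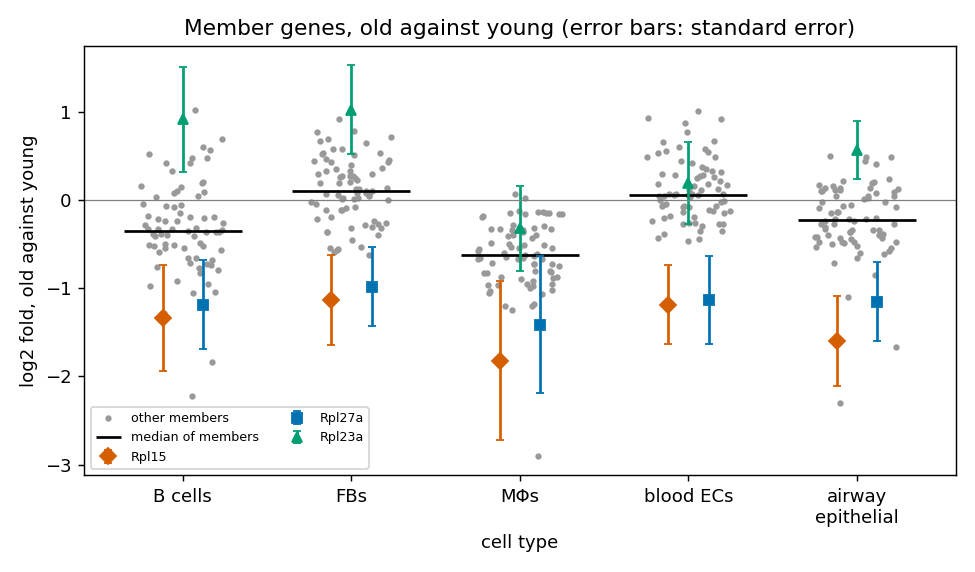
Log2 fold between old and young (y axis) of the tested member genes in 5 cell types (x axis). Rpl15, Rpl27a and Rpl23a are coloured symbols with bars of 1 standard error, and the other members are grey points. Black lines mark the median of all tested members, these genes included. Rpl15 lies between -1.82 and -1.13 and Rpl27a between -1.41 and -0.98, while the medians lie between -0.62 and 0.11, and no point passed an adjusted p of 0.05.

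Without old 2, the B cell comparison called 6 members lower in old mice, namely Rps28, Rps27, Rps29, Rpl27a, Rpl37a and Rpl39, where 2.3% of all genes were called lower. These were named after their values were seen, as were the members called relative to the members' sum. Relative to the members' sum, with all libraries, Rps28 was called (log2 fold -1.54 ± 0.39, adjusted p = 0.0148), where 0.312% of all genes were lower and 1.25% higher. No other member was called by age on that scale in any type, where up to 0.0444% of all genes were lower and 0.0296% higher in FBs and 0.0345% lower and 0.242% higher in MΦs. Rps28 had 86.9 and 65.0 UMIs per 10000 in B cells of young 1 and young 2, 41.0 in old 2, 7.42 in old 3 and 9.60 in old 4. In FBs its level was 39.5 in young 1, 17.7 in young 2, 44.5 in old 1, 19.7 in old 2, 3.41 in old 3 and 4.87 in old 4. In B cells every old library lay below both young ones, whereas in FBs old 1 and old 2 lay above young 2. Old 3 and old 4 were the lowest libraries in both types.

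Old 3 and old 4 differed from the other libraries in the make-up of the module. The 10 members with transcripts under 500 bases, among them Rps27, Rps29, Rps28 and Rplp1, took 10.7% to 15.6% of member UMIs over the cell types of these 2 libraries, and 15.6% to 23.1% in the other 4. In B cells it was 10.8% in old 3 and 13.8% in old 4, against 19.4%, 15.6% and 18.5% in young 1, young 2 and old 2. This held in each of the 7 types. Across members, the Spearman correlation of transcript length with the deviation of the library from the mean was 0.20 to 0.33 in old 3 and 0.12 to 0.21 in old 4, and -0.40 to -0.20 in young 1 and old 2. It was -0.17 to 0.07 in young 2 and -0.06 to 0.004 in old 1. Genes outside the module gave 0.23 to 0.51 in old 4 and -0.012 to 0.30 in old 3. Members were scaled to the member UMIs and the other genes to all UMIs. In old 4 the relation to length was thus not limited to the members. In old 3 the other genes gave -0.012 in B cells and 0.08 in T cells, where the members gave 0.24 and 0.26. In the other types of old 3 they gave 0.20 to 0.30. In old 1 and old 2 the other genes did not follow the members, with -0.55 to -0.22 and -0.11 to 0.16. They gave -0.44 to -0.08 in young 1 and -0.19 to 0.13 in young 2. Old 3 and old 4 were also the deepest libraries. The part of depth, preparation and age in their difference from the other libraries cannot be told apart.

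**Figure D5:**
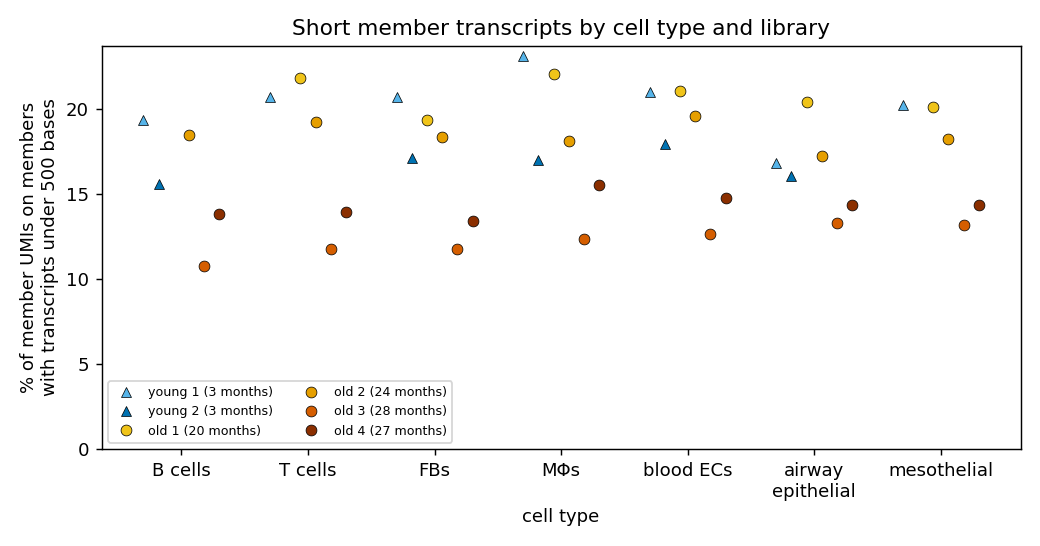
Percent of member UMIs on the 10 members with transcripts under 500 bases (y axis) in 7 cell types (x axis), with 1 point per library (triangles young, circles old). Old 3 (10.8% to 13.3%) and old 4 (13.4% to 15.6%) lie below the other libraries of the same type.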

How the data were processed

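Single cell libraries of proximal PAs of mice, 2 young and 4 old, were used. Per the labels, the authors processed reads with Cutadapt, STAR and STARsolo and the build GRCm38.p6. The deposited tables hold whole-number UMI counts, neither filtered nor normalized, for all 6794880 possible barcodes of each library. How reads that match several copies of a gene were counted is not given in the sources used here, and this bears on members with processed copies. Gene names are those of the files.

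Cells had at least 500 UMIs, 300 genes and at most 20% mitochondrial UMIs. Likely doublets were marked per library and removed, and cells were clustered with scanpy 1.11.5 without members and their pseudogenes. Clusters were named by markers, and those with more markers of another class among their top genes were kept apart. Each type used only libraries in which it had 10 cells or more.

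Member UMIs were summed per library and type. Shares of single values were compared with exact sign-flip and exact permutation tests (scipy 1.17.1), two-sided, with Benjamini-Hochberg adjustment. Summed counts were tested with edgeR 4.0.16 (TMM, robust quasi-likelihood test) in R 4.3.3, on genes detected in more than 5% of the cells of 3 or more profiles. Adjusted p values cover all genes tested. The alternatives were DESeq2 1.42.0, no TMM, a library size set to the members' sum, other filters and cell types, thinning to 500 UMIs and leaving out libraries. On simulated data, the model recovered 15% to 40% of 200 genes changed by a fold of 2 between types. At a fold of 4 between ages it recovered 1% (MΦs) to 56.5% (airway epithelial cells).

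Named members were the 3 largest called rises and falls of each type, the members with the lowest p by age, the stalk proteins, Rpsa, Rps6, Rps27a, Rpl13a and the paralog pairs, with exceptions named in the text, and 1 member is not reported here by name. The members, lists and rules were chosen with earlier results of these data known. Transcript lengths came from GENCODE M21 for 83 members, as the longest of the best-ranked principal protein-coding transcripts of each gene. They ran from 345 bases (Rps27) to 5179 bases (Rps15a). Which transcripts the cells held was not tested.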

Additional observations from a re-analysis of the deposited data

Results flagged for a closer look

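Among 139 groups of 4 old libraries looked at, 13 had a library that stood apart from the others by Dixon's criterion, which chance meets in about 1 in 20 groups. Old 1 stood above the other old libraries in the share of UMIs on members in blood ECs (13.7%) and FBs (14.9%). Of its 674 blood ECs, 624 lay in a cluster with at most 5 cells of any other library, at 13.8%. In the blood EC cluster that every library held, old 1 had 8.07% (45 cells), against 8.47%, 9.34% and 11.7% in old 2 to old 4. In the FB cluster led by Abca8a, old 1 had 12.9% (13 cells), against 8.51%, 9.09% and 8.67%. Old 1 also stood above the other old libraries in Rplp0 (20.4 UMIs per 10000) and Rpsa (16.0) of airway epithelial cells and in Rps18 (15.5) and Rps4x (24.2) of blood ECs. The same held for Rpsa of mesothelial cells (21.4) and Rps4l of T cells (0.403). The Rps4l value came from 18 T cells with 24839 UMIs in all and lies at the floor of counting. Old 2 stood above the other old libraries in MΦs for Rpl22l1 (7.53 UMIs per 10000), Rpl27a (8.79), Rps27a (36.6) and Rpl15 (4.46), and apart from them in blood ECs for Rplp1 (18.3). UMIs on ribosomal protein pseudogenes, which no comparison of shares used, were highest in young 2 at 0.633% of UMIs in kept cells.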

How the results depend on the processing

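No paired analysis was possible because the labels give young and old mice no shared replicate numbers. Cell types were compared within libraries. Of the values of shares under the alternatives, 273 kept their direction and 14 turned direction. Their side of the threshold says little. No exact permutation test between ages could go below p = 0.133. The exact sign-flip test between types could not go below p = 0.0625 with 5 libraries or 0.03125 with 6, before adjustment. MΦs minus blood ECs was -0.82 percentage points at 1000 UMIs and 500 genes, -0.057 with types set by marker UMIs and -0.038 without old 2, and up to 2.23 without old 1. FBs minus MΦs was -0.59 without old 1 and -0.36 without old 3, and up to 1.64 when another library was left out. Between ages, FBs gave 0.17 with types set by marker UMIs, 0.37 without young 1 and 0.098 without old 4, down to -1.97 without old 1, and blood ECs gave -0.71 without young 2, -1.07 without old 1, 1.48 without young 1 and -0.58 within the 3 libraries that share barcodes. All kept cells gave 3.14 without young 1, -6.79 without young 2 and 0.68 within those 3 libraries, and MΦs 1.33 within them. Keeping clusters that failed the marker check in their class was an alternative chosen after seeing the data.

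Counts of members called moved most, and those between types are given here without the share of all genes called under the same alternative. With a library size from the members they were 11 in B cells, 11 in T cells, 6 in blood ECs, 4 in MΦs, 5 in mesothelial cells and 1 in B cells by age. Without TMM they were 72 in T cells, 76 in airway epithelial cells, 6 in FBs and 26 in MΦs. With DESeq2 they were 64, 19, 7 and 41 in the same types and 48 in blood ECs. In thinned cells they were 10, 2, 1 and 1 in those types and 3 in blood ECs. Without a gene filter they were 17 in blood ECs, 1 in FBs and 4 in MΦs. By age they were then 2 in airway epithelial cells, where 173 of 24887 genes were called. At an unadjusted p under 0.05 and a fold over 2, the counts by age were 5 in B cells, 3 in airway epithelial cells, 2 in blood ECs and 1 in FBs, all lower in old mice, where 2.08%, 2.12%, 1.6% and 1.38% of all genes were lower.

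When 1 library was left out, the members called ranged from 74 to 78 in B cells, 18 to 51 in T cells, 3 to 3 in airway epithelial cells, 10 to 51 in blood ECs, 0 to 4 in FBs, 2 to 5 in MΦs and 56 to 70 in mesothelial cells. These counts between types are again given without the share of all genes called. By age the members called ranged from 0 to 6 in B cells and were 0 elsewhere. Of the named log2 folds, 342 kept their call, 29 lost it, 1 gained it and 1 turned, namely Rpl41 in airway epithelial cells (-0.11 without TMM). The cause of these changes was not tested. With 2 young libraries, and 22 B cells in young 2, depth and number limit every comparison by age. The tests by age also take the libraries as independent, which the barcodes shared by young 1, young 2 and old 2 put in doubt.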

Other observations

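The lists of related genes were also compared between ages. edgeR called 0 genes of the 7 lists in each of the 5 types. The 27 pseudogene rows tested in B cells had a median log2 fold of -1.75 between old and young, and 0 of them lay above 0, beside a median of 0.09 over all genes. In FBs 0 of 24 lay above 0 (median -1.31), in MΦs 0 of 22 (-2.09), in airway epithelial cells 0 of 35 (-1.86), and in blood ECs 2 of 18 (-1.29). The share of UMIs on pseudogene rows was 0.412% and 0.633% in young 1 and young 2 and 0.335%, 0.300%, 0.0398% and 0.122% in old 1 to old 4, so that with all cell types pooled both young libraries lay above all old ones. Within types, young 1 lay below old 1 in blood ECs (0.218% against 0.351%), FBs (0.297% against 0.382%) and airway epithelial cells (0.188% against 0.291%), and below old 2 in MΦs (0.312% against 0.356%).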
